A study of Bos taurus with 6 samples.

Results

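The genes described here were grouped as tendon and connective tissue matrix genes: COMP, PRG4, PTX3, HABP2, WISP2 (now named CCN5) and LOC785805 (now named COL6A5). All code for secreted proteins. The name "matrix genes" is used below for the group only, since not every member is known mainly as a matrix protein. These genes are 6 of the 232 that the authors listed as different in expression between Angus and Luxi muscle. Angus is a beef breed that comes from Scotland, and Luxi is a breed of the Chinese yellow cattle. The 6 genes were chosen by symbol from that list, so they were selected on the breed means, the ratio of the breeds and the p-value of the very comparison described below. Their difference between the breeds is therefore given as a description, with no test of its own. Muscle came from 3 Angus and 3 Luxi animals, all 18 months old. The labels give no treatment, no sex and no name of the muscle. The 6 animals are separate samples in the labels, and the deposited values are 1 mean per breed and gene. All 6 symbols matched the bovine gene table of RefSeq, which gave the current names. In the authors' deposited table, LOC785805 carries the older collagen name "collagen, type XXIX, alpha 1".

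The extracellular matrix is the mesh of collagens, proteoglycans and linking proteins that holds muscle fibres together and carries their force to the tendon. In muscle it is made mainly by fibroblasts, while tendon cells, cartilage cells and the cells lining joints and tendon sheaths make forms of it suited to load and gliding. COMP is a pentameric glycoprotein that binds collagen fibrils in cartilage and tendon. PRG4, or lubricin, is a heavily glycosylated lubricant of joint and tendon surfaces. PTX3 is a long pentraxin secreted in inflammation, which also helps to cross-link the hyaluronan-rich matrix. HABP2 is a hyaluronan-binding serine protease that circulates in plasma and is known mainly as a product of the liver. CCN5 is a matricellular protein of the CCN family that lacks the C-terminal domain of its relatives, and COL6A5 is a long alpha chain of collagen VI, the beaded microfibrils around cells.

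The mean count of a breed, a whole multiple of 1/3, gives its summed reads. Together with the mean RPKM (reads scaled to the length of the gene and the depth of the library) it allowed the reads in each library to be worked back. The depths of the 3 Angus libraries were 5736365, 5577223 and 5429318 reads, and those of the 3 Luxi libraries 6047227, 5890554 and 5799075. In each breed the libraries are named deepest, middle and shallowest by these depths, and values per library follow in that order. The sources used here do not tie a library to an animal. The reads of 5 of the 6 genes were known in every library, and LOC785805 had 3 whole-number solutions in Angus. Intervals on shares of reads are exact Clopper-Pearson intervals at 95% and cover counting error only, since reads that carry no molecular identifiers may be copies of 1 molecule.

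The 6 genes did not share a direction by breed mean: COMP, PRG4, PTX3 and HABP2 were higher in Luxi, and WISP2 and LOC785805 were higher in Angus. The share higher in Luxi, 4 of 6, stands beside 36.6% of all listed genes (85 of 232). The choice of the genes fixes that count, and nothing is read from it. In each of the 6 genes 1 library gave most of the reads of the higher breed, the deepest Luxi library for the 4 genes higher in Luxi and the deepest Angus library for both genes higher in Angus. Without that library, PRG4, PTX3 and HABP2 turned to higher in Angus. WISP2 stayed over 2-fold higher in Angus, LOC785805 fell to a log2 ratio between 0.43 and 0.68, and COMP stayed above a level of 0.

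COMP (gene identifier 281088, gene length 2461 bases) was the only one of the 6 with no read in 1 breed. No Angus library held a COMP read, which allows a mean of up to 0.0728 RPKM if 3 reads over the Angus group are taken as the limit. The Luxi libraries held 51, 2 and 11 reads, or 3.43, 0.138 and 0.771 RPKM. All Luxi libraries lay above all Angus libraries, and the middle Luxi library did so by 2 reads. The authors' deposited table gives 1.45 RPKM in Luxi, p = 8.93e-07 and a false discovery rate (FDR) of 3.17e-05. The SD over the Luxi libraries, 1.75 RPKM, was larger than that mean. Against the limit of 3 reads, the log2 ratio of Angus over Luxi was -4.31, and it was -2.64 without the deepest Luxi library. With a limit of 3 reads in each Angus library in place of 3 over the group, it was -2.73. The size of a ratio against a breed with no read depends on the value put in place of 0. With a pseudocount of 1 RPKM it was -1.29, so none of these values bounds the difference between the breeds.

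PRG4 (280867, 4704 bases), the lubricant, had 6, 10 and 12 Angus reads and 148, 6 and 10 Luxi reads. These are 0.222, 0.381 and 0.470 RPKM in Angus and 5.20, 0.217 and 0.367 RPKM in Luxi. A single Luxi library stood above all others, the middle Luxi library was the lowest of the 6, and the breeds overlapped. The authors' deposited table gives means of 0.358 RPKM in Angus and 1.93 RPKM in Luxi, a 5.39-fold difference with p = 2.26e-06 and an FDR of 7.5e-05. The SD over libraries was 0.125 RPKM in Angus and 2.84 RPKM in Luxi. The medians of the breeds were 0.381 RPKM in Angus and 0.367 RPKM in Luxi. Without the deepest Luxi library, the Luxi mean was 0.815 of the Angus mean.

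PTX3 (541148, 1859 bases), the long pentraxin, had 9, 30 and 7 Angus reads and 148, 6 and 8 Luxi reads. These are 0.844, 2.89 and 0.694 RPKM in Angus and 13.2, 0.548 and 0.742 RPKM in Luxi. The deepest Luxi library was highest, the middle Angus library came next, and the other 4 libraries lay close together, so the breeds overlapped. The authors' deposited table gives means of 1.48 RPKM in Angus and 4.82 RPKM in Luxi, a 3.26-fold difference with p = 5.26e-06 and an FDR of 1.63e-04. The SD was 1.23 RPKM in Angus and 7.23 RPKM in Luxi, and the medians were 0.844 and 0.742 RPKM. PTX3 turned furthest of the 3 genes that changed direction: without the deepest Luxi library the Luxi mean was 0.437 of the Angus mean.

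HABP2 (507993, 2912 bases), the hyaluronan-binding protease, had 7, 18 and 27 Angus reads and 153, 7 and 13 Luxi reads. These are 0.419, 1.11 and 1.71 RPKM in Angus and 8.69, 0.408 and 0.770 RPKM in Luxi. Again the deepest Luxi library stood alone at the top, and the other Luxi libraries lay within or below the range of the Angus libraries. The authors' deposited table gives means of 1.08 RPKM in Angus and 3.29 RPKM in Luxi, a 3.05-fold difference with p = 7.09e-06 and an FDR of 2.14e-04. The SD was 0.645 RPKM in Angus and 4.68 RPKM in Luxi, and the medians were 1.11 and 0.770 RPKM. Without the deepest Luxi library, the Luxi mean was 0.546 of the Angus mean.

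WISP2 (534658, 2641 bases), the CCN family gene, had 275, 18 and 16 Angus reads and 7, 12 and 7 Luxi reads. These are 18.2, 1.22 and 1.12 RPKM in Angus and 0.438, 0.771 and 0.457 RPKM in Luxi. All Angus libraries lay above all Luxi libraries, although the gap between the shallowest Angus and the middle Luxi library was small beside the excess of the deepest Angus library. The authors' deposited table gives means of 6.83 RPKM in Angus and 0.556 RPKM in Luxi, a 12.3-fold difference with p = 1.17e-23 and an FDR of 1.66e-21. The SD was 9.81 RPKM in Angus and 0.187 RPKM in Luxi, and the medians were 1.22 and 0.457 RPKM. WISP2 was the only gene above 0 in both breeds whose difference stayed over 2-fold without its top library, with the other Angus libraries at 2.10 times the Luxi mean.

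LOC785805 (785805, 8614 bases), the collagen VI chain, had the largest ratio of the 5 genes above 0 in both breeds. Its Angus reads were 206, 8 and 4, or 207, 6 and 5, or 208, 4 and 6, and its Luxi reads were 4, 5 and 3. The deepest Angus library thus held 4.17 to 4.21 RPKM, the middle one 0.0833 to 0.167 and the shallowest one 0.0855 to 0.128, against 0.0768, 0.0985 and 0.0601 RPKM in Luxi. Outside the deepest Angus library, no library held more than 8 reads of this gene, and whether the breeds overlap depends on the solution. The authors' deposited table gives means of 1.47 RPKM in Angus and 0.0785 RPKM in Luxi, an 18.8-fold difference with p = 2.48e-18 and an FDR of 3.02e-16. The SD was 2.33 to 2.37 RPKM in Angus and 0.0193 RPKM in Luxi. The other Angus libraries averaged 1.35 to 1.61 times the Luxi mean. Collagen VI has several long alpha chains of related sequence, and the sources used here do not say how reads that match several genes, or either strand, were counted.

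**Figure D1:**
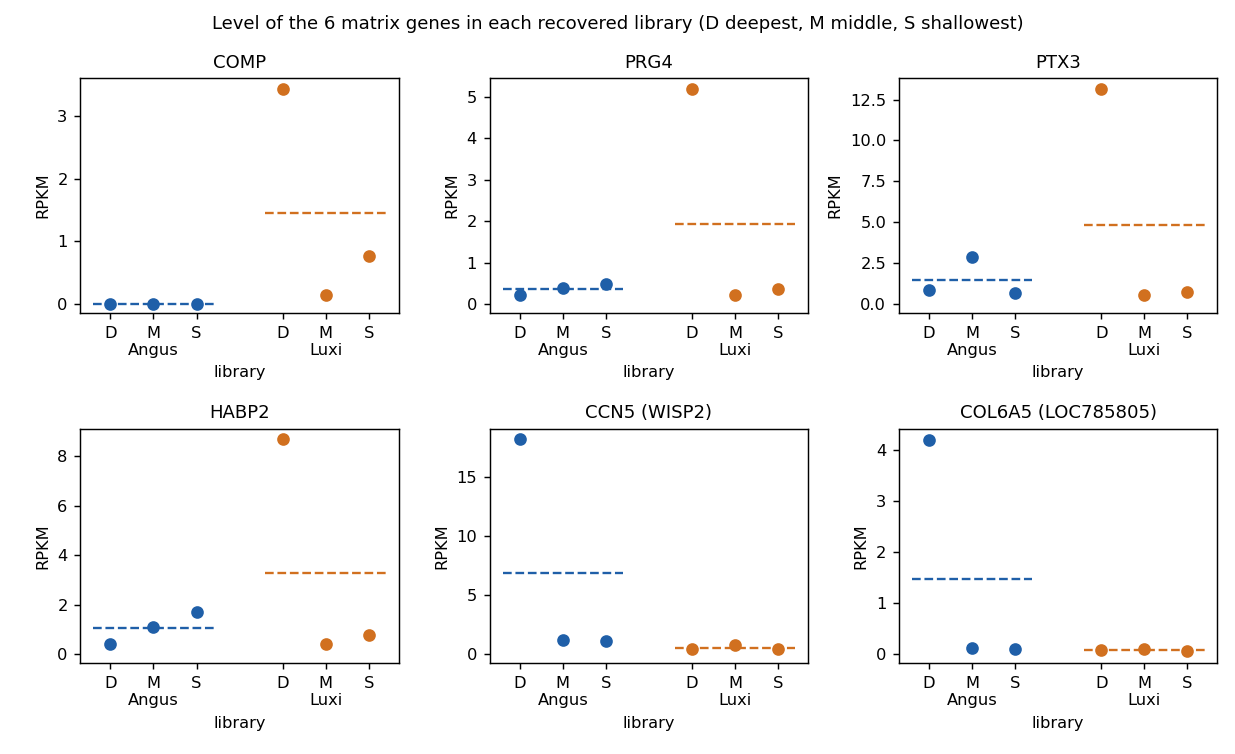
RPKM (vertical axis, linear, a separate scale for each gene) of the 6 matrix genes in each library (horizontal axis, D deepest, M middle, S shallowest of its breed). Points are libraries, blue for Angus and orange for Luxi, dashed lines are breed means, and COL6A5 is drawn at the middle of its 3 solutions. In COMP, PRG4, PTX3 and HABP2 the deepest Luxi library stands above every other library, and in CCN5 (WISP2) and COL6A5 (LOC785805) the deepest Angus library does.

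The share of reads held by 1 library was high in all 6 genes. Of the Luxi reads, the deepest Luxi library held 79.7% for COMP (interval 67.8% to 88.7%), 90.2% for PRG4 (84.6% to 94.3%), 91.4% for PTX3 (85.9% to 95.2%) and 88.4% for HABP2 (82.7% to 92.8%). Of the Angus reads, the deepest Angus library held 89.0% for WISP2 (85.0% to 92.3%) and 94.5% to 95.4% for LOC785805 (90.6% to 97.8% over the 3 solutions). A share above 2/3 was thus found in 6 of 6 genes, beside 32.1% of listed genes whose share is determined (34 of 106). The share was not determined for 126 listed genes, among them those with most reads, so the 32.1% does not describe the whole list. In each of the 6 genes the top library was also the deepest of its breed, and division by depth moved the shares little. They were then 79.0% for COMP, 89.9% for PRG4, 91.1% for PTX3, 88.1% for HABP2, 88.6% for WISP2 and 94.3% to 95.2% for LOC785805. The level of the top library was 7.54 times the mean of the other libraries of its breed for COMP, and 33.1 to 39.8 times for LOC785805. The other 4 genes lay between these, at 14.8 times for HABP2, 15.5 for WISP2, 17.8 for PRG4 and 20.4 for PTX3.

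**Figure D2:**
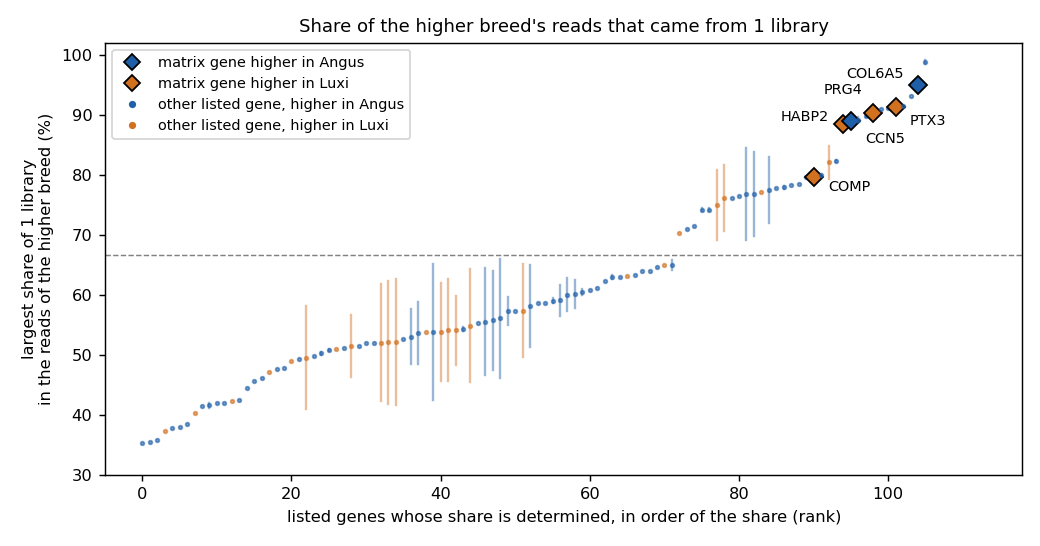
Largest share of 1 library in the reads of the higher breed (vertical axis, percent, starting at 30), for the listed genes whose share is determined, in order of the share (horizontal axis, rank). Diamonds are the matrix genes, small points are other listed genes, vertical lines span the read solutions, and the dashed line marks 2/3. All 6 diamonds lie above the line, COMP lowest at 79.7% and COL6A5 highest.

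Summed over the 6 genes, the deepest library of each breed held about the same amount of their reads. It was 503 to 505 reads in the deepest Angus library, or 87.7 to 88.0 RPM (reads scaled to library depth alone), and 511 reads in the deepest Luxi library, or 84.5 RPM. The other Angus libraries held 14.3 to 15.1 and 12.2 to 12.5 RPM, and the other Luxi libraries 6.45 and 8.97 RPM. The reads of the 2 deepest libraries came from different genes. WISP2 and LOC785805 made up most of them in Angus, and COMP, PRG4, PTX3 and HABP2 in Luxi. The 6 genes were selected on breed means that these 2 libraries largely set. High sums there and their different genes follow from that choice, and nothing about matrix RNA as a whole is read from them. In bulk tissue, fewer cells of a type and less RNA per cell cannot be told apart.

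Leaving out 1 library at a time shows how each gene's ratio depends on that library. Of the 5 genes whose overlap is determined, 2 had breeds that did not overlap (COMP and WISP2), beside 52.8% of listed genes where this is determined (65 of 123). A gene with no read in 1 breed, such as COMP, counts as not overlapping once every library of the other breed holds a read. Genes of that kind are part of the 52.8%. Without the library with most reads, 3 of 6 genes kept their direction (COMP, WISP2 and LOC785805), beside 93% of listed genes where this is determined (132 of 142). A ratio of at least 2 remained for 2 of 6 genes (COMP and WISP2), beside 53.3% of listed genes where this is determined (81 of 152). A gene with no read in 1 breed, such as COMP, meets both of these criteria with any read left, since no limit replaced 0 here. Such genes are part of both shares, so the shares are no background for genes above 0 in both breeds. The log2 ratios of Angus over Luxi without the deepest Luxi library were 0.30 for PRG4, 1.20 for PTX3 and 0.87 for HABP2, from -2.43, -1.71 and -1.61 with all libraries. Those without the deepest Angus library were 1.07 for WISP2 and 0.43 to 0.68 for LOC785805, from 3.62 and 4.23.

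**Figure D3:**
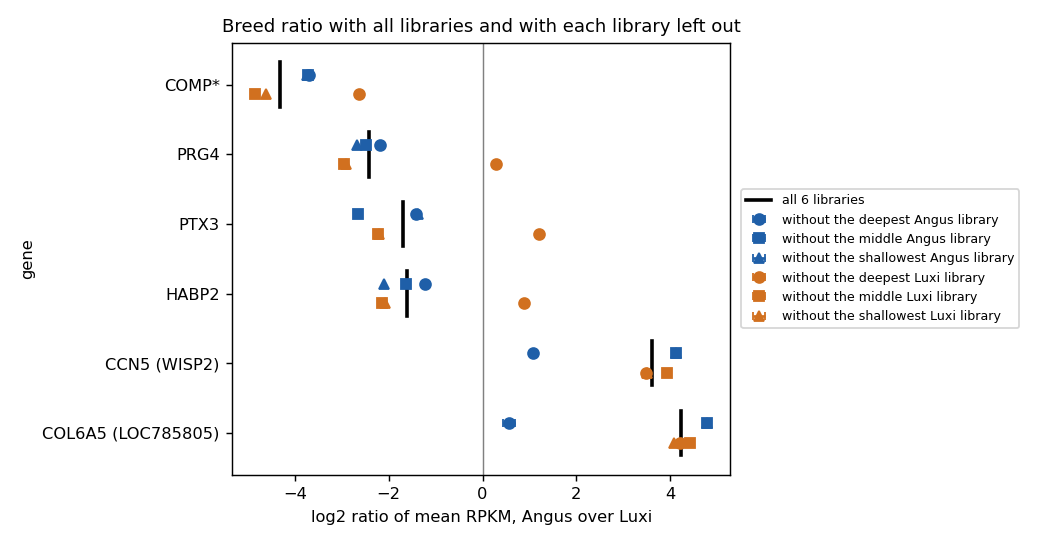
Log2 ratio of mean RPKM, Angus over Luxi (log scale, 0 is no difference), of each of the 6 genes with all libraries and with 1 library left out at a time, as the key gives. The asterisk at COMP marks a ratio against a limit of 3 reads over the Angus group, since no Angus library held a COMP read. PRG4, PTX3 and HABP2 cross 0 without the deepest Luxi library, and CCN5 (WISP2) and COL6A5 (LOC785805) come nearer to 0 without the deepest Angus library.

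The authors' p-values were close to those of a test of 2 Poisson counts on the breed means, which takes no account of the spread between animals. Recomputed only to see what kind of p was deposited, that test gave a p within 5% of the authors' for 121 of 130 listed genes whose deposited p is above 1e-10. Of the matrix genes, 4 have a deposited p above that limit, and 3 of these 4 were within 5%. WISP2 and LOC785805 have a smaller p and were not part of the comparison. Within each direction, the matrix genes stood at ranks 63, 68, 74 and 77 by deposited p among 85 genes higher in Luxi, and at ranks 30 and 41 among 147 higher in Angus.

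The 4 genes higher in Luxi were alike across libraries. Each gene was compared with 57 other genes that had known reads in all libraries and at least 20 reads. Likeness was measured over 6 libraries as the summed absolute difference of each gene's shares of depth-scaled reads. On this measure 0 is the same profile and 2 is no overlap. Likeness was 0.192 between PRG4 and HABP2, 0.220 between PRG4 and PTX3 and 0.230 between PTX3 and HABP2. COMP was less like them, at 0.313 to PRG4, 0.469 to PTX3 and 0.494 to HABP2. For each of the 4, the 3 nearest genes were the other 3. That ranking covers only the genes that could be compared. The other 3 genes known to draw most Luxi reads from the deepest Luxi library (ENAH, ACTC1 and an EST cluster) have more than 1 read solution. They were not among the 57, and their likeness to the 4 genes was not measured. These values share libraries and depth, and the genes were selected on their breed means, so they are descriptions only.

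WISP2 was far from these 4 genes, at 1.58 to 1.86. Its nearest gene was IL17RB, a receptor chain for interleukin-17 family cytokines, at 0.118, with 101, 3 and 7 reads in Angus and 1, 2 and 4 in Luxi. An immunoglobulin kappa-like gene, LOC100141470, followed at 0.230, with 61, 1 and 5 reads in Angus and none in Luxi. FBP1, a gluconeogenic phosphatase, was next at 0.232, with 67, 1 and 4 reads in Angus and none in Luxi. None of the 3 codes for a matrix protein. LOC785805 was not ranked, since its Angus reads have more than 1 solution.

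Other listed genes also drew most of their reads from these libraries. Their numbers are minimum counts, since the share could not be determined for 126 of the 232 listed genes. Of the genes higher in Luxi, at least 7 had over 2/3 of their Luxi reads in the deepest Luxi library, and 4 of these are the matrix genes. The other 3 had more reads: ENAH, an actin regulator of focal adhesions, with 1743 Luxi reads and 69.2% to 80.7% of them in that library, ACTC1, the cardiac alpha-actin that developing skeletal muscle also makes, with 479 reads and 70.6% to 81.6%, and a cluster of expressed sequence tags (ESTs, short cDNA reads without a gene name) with 315 reads and 79.4% to 84.8%. HABP2 and PRG4 completed the 5 with most reads. In the deepest Angus library there were at least 18 such genes, of which 2 are matrix genes. The 5 with most reads included MYH13, the myosin of extraocular muscle (98.5% to 99.2% of 1765 reads), and SLC2A3, a glucose transporter (69.9% to 83.7% of 1267). IGFBP5, a secreted binding protein of insulin-like growth factors (69.2% to 84.4% of 730), was also among them. The others were an EST cluster with 1022 reads and an entry described as a pseudogene mRNA for a pol protein, with 777 reads.

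Matrix genes beyond the 6 were looked for in 10 gene lists with 280 symbols, some of which are an older and a current name of 1 gene. The lists covered tendon and cartilage, fibrillar collagens, collagen VI, basement membrane, matricellular proteins, hyaluronan, small proteoglycans and elastic fibres, proteases, receptors and the TGF-beta and BMP pathways. By these symbols 7 genes of the authors' list were found, and 6 of these are the genes described here. Of the 7, 5 had the higher mean in Luxi and 2 in Angus, beside 36.6% of all listed genes higher in Luxi, and nothing is read from this, since 6 of the 7 were chosen from the list. The tendon and cartilage list gave 2 genes from 34 symbols, COMP and PRG4, and the hyaluronan list gave 2 from 28, HABP2 and PTX3. The collagen VI list gave 1 from 12 symbols, LOC785805, and the matricellular list 1 from 28, WISP2. None of the 34 symbols of fibrillar and associated collagens, the 21 of basement membrane, the 26 of small proteoglycans and elastic fibres, the 27 of receptors or the 28 of TGF-beta and BMP was in the list. Listed genes under related symbols were not counted. Examples are CHRDL1 and CHRDL2, both higher in Angus, where CHRD was searched. LOC100335807, a glypican 3-like gene higher in Luxi, is another, where GPC3 was searched. Genes outside the authors' list were not analysed here.

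The seventh gene was ADAMTSL4, from the list of proteases and inhibitors (1 of 42), a secreted relative of matrix proteases that binds fibrillin microfibrils and has no protease domain. The authors' deposited table gives 11 RPKM in Angus against 25.4 in Luxi, a 2.31-fold excess in Luxi. Its reads per library were not fixed by the means: without the middle Luxi library its log2 ratio could lie anywhere between -1.79 and 5.0.

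The authors' own gene ontology (GO) terms gave a wider set, which was assembled after its values were seen. Terms for the extracellular matrix marked 5 genes, of which 3 were higher in Luxi (COMP, ADAMTSL4 and LOC100335807) and 2 in Angus (CCDC80 and an EST cluster). In the authors' deposited table, LOC100335807, a glypican 3-like gene for a cell-surface proteoglycan, is listed at 0 in Angus and at 2.95 RPKM in Luxi. CCDC80, a secreted matrix protein, is given there at 30.4 RPKM in Angus against 13.7 in Luxi, a 2.22-fold excess in Angus. The log2 ratio of CCDC80 could be anywhere between -0.65 and 1.74 if the middle Angus library is left out. Terms for the extracellular space marked 19 genes, 3 of them among the 6. The higher mean was in Angus for 12 of the 19 and in Luxi for 7. The share higher in Luxi was 36.8%, close to the 36.6% of all listed genes.

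Some of these secreted genes had ratios that no single library carried. SFRP5, a secreted inhibitor of Wnt signalling, had 78, 101 and 40 Angus reads and 28, 29 and 25 Luxi reads. The authors' deposited table gives a 2.82-fold excess in Angus. Its breeds did not overlap, and its log2 ratio stayed between 1.18 and 1.78 when any 1 library was left out. DLK1, a secreted and membrane-bound regulator of fat and muscle cell differentiation, is listed at 0 in Angus and had 36, 14 and 17 reads in Luxi. Others moved like the matrix genes: without the deepest Angus library, C3, the central complement protein, turned to a log2 ratio of -0.74 to -0.72, from 1.14.

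**Figure D4:**
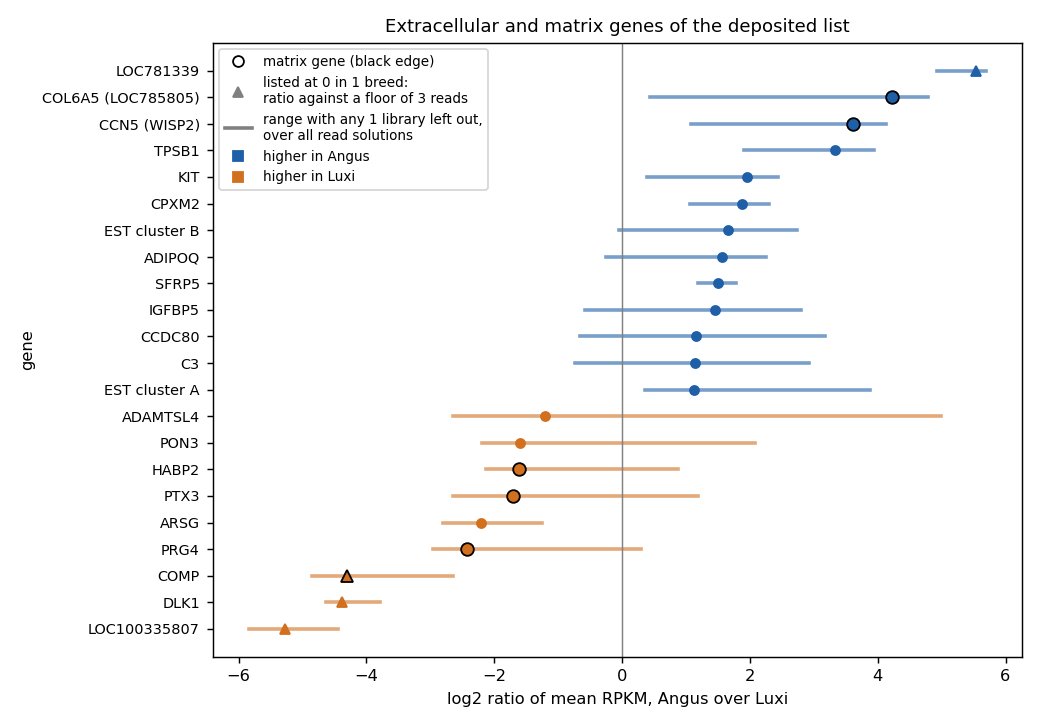
Log2 ratio of mean RPKM, Angus over Luxi (horizontal axis, log scale), of the listed genes that the matrix lists or the authors' GO terms mark as matrix or extracellular (vertical axis). Points are ratios of the deposited means, lines span all ratios with any 1 library left out, triangles are genes at 0 in 1 breed with a limit of 3 reads in its place, black edges mark the 6 matrix genes, and EST clusters A and B are tag clusters without a gene name. The lines of PRG4, PTX3 and HABP2 cross 0 and those of COMP, CCN5 (WISP2) and COL6A5 (LOC785805) do not.

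Level and ratio are given here beside those of the other listed genes, which passed the same filter on ratio and p. Since p depends on reads, that filter can tie ratio to level, and this was not tested. Some listed genes of low level had a small ratio, such as C3 at 4.21 RPKM in Angus with a log2 ratio of 1.14. The 5 matrix genes above 0 in both breeds had a median RPKM of 2.61 in their higher breed, against 12.8 for the 185 listed genes above 0 in both. Their median absolute log2 ratio was 2.43, against 1.41 for those 185 genes, and HABP2 and PTX3, at -1.61 and -1.71, lay near the latter in size. With the sign kept, the medians of Angus over Luxi were -1.61 and 1.15. A low level leaves few reads outside the top library, between 2 and 30 per library in these 6 genes apart from the Angus libraries of COMP.

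The listed mast cell and adipocyte markers summed highest in the deepest Angus library, where WISP2 and LOC785805 were also highest, and their part in the values of these genes was not tested. Of 6 mast cell marker symbols, of which TPSB1 and TPSB2 name the same gene here, 3 genes were listed. These were TPSB1, CPA3 and KIT, all higher in Angus and none at 0 in either breed. Their summed level was 20.9 RPKM in the deepest Angus library, 2.12 to 2.19 in the middle one and 6.55 to 6.59 in the shallowest, against 1.43 to 2.53 in the Luxi libraries. Of 7 adipocyte markers, 2 were listed (ADIPOQ, and CIDEC, which is at 0 in Luxi), and their sum was 36.0 to 43.6 RPKM in the deepest Angus library, against at most 19.7 in any other library. Epithelial markers did not follow that library alone: of 4, KRT8 and KRT19 were listed, with sums of 16.1 and 16.0 RPKM in the deepest and middle Angus libraries and 1.26 to 3.77 in the other 4.

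Markers that bear on the origin of the 4 genes higher in Luxi were scarce in the list. Of 8 tendon cell markers, 0 were listed, and of 7 markers of synovial lining and joint cartilage 1 was, PRG4 itself. Of 7 liver markers 1 was, HABP2 itself, and of 8 fibroblast, 5 endothelial and 6 macrophage and neutrophil markers 0 were. None of the 10 skeletal muscle markers was listed either, so the labelled tissue could not be checked with them. The level of these markers in the deepest Luxi library was not analysed here, and the part of tendon, synovium or liver RNA in the COMP, PRG4, PTX3 and HABP2 values was not tested.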

How the data were processed

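Muscle RNA of 3 Angus and 3 Luxi cattle was sequenced on an Illumina HiSeq2000 after Trizol extraction, per the labels' protocols. The sources used here do not name the aligner, genome build, gene set, strandedness or statistical test, and no coordinates are printed. The deposited table holds 232 genes that passed the authors' filter (largest deposited FDR 9.67e-04, smallest absolute log2 ratio 1.00), and genes below it were not analysed here. Per gene and breed the authors deposited a mean read count, which is a whole multiple of 1/3 and so not a raw count, and a mean RPKM, printed as 0.001 where the count was 0 and treated as 0 here. The log2 ratio, p-value and FDR are the authors' deposited values, per the file headers. The sign of the ratio was turned to Angus over Luxi. There were 0 unused columns of per-sample values.

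Reads per library were worked back by a search for library depths at which every mean count and mean RPKM, given to 6 significant digits, can come from whole numbers of reads. A single set of depths met this in each breed, to within 4 reads. It gave solutions for 210 Angus and 207 Luxi genes, of which 82 and 58 were single, and 58 genes were known in all 6 libraries. Other genes carry the range over their solutions. A background share counts only genes for which every solution gives the same answer. On 6 simulated tables of 1220 genes in all, the search kept the true reads of 1220 genes, and all 529 of the 529 single solutions matched them. No count model with a spread between replicates was run, since the deposited means are not raw counts. The genes and lists were chosen with earlier results of these data known, so no p-value computed here is given for them. A Poisson test of the breed means was run over all listed genes only to examine the deposited p-values. The genes named were the 6 matrix genes, every listed gene of a gene list, the 3 genes most like each matrix gene and the 5 with most reads in the same library. C3, SFRP5, DLK1, CCDC80 and LOC100335807 were taken from the GO terms after their values were seen. CHRDL1 and CHRDL2 were named only as relatives of a searched symbol. A ratio against a breed at 0 used a limit of 3 reads over the group. The alternatives were a limit of 3 reads per library, medians, mean counts over depth, a pseudocount of 1 RPKM and left-out libraries. Promoter motifs and protein features were not run. The result of 1 marker list is not reported here. Python 3.11.15, NumPy 2.4.6, SciPy 1.17.1, pandas 2.3.3, Numba 0.67.0 and Matplotlib 3.10.9 were used, with gene names from RefSeq's ARS-UCD2.0 table.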

Additional observations from a re-analysis of the deposited data

How the results depend on the processing

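Of the 6 matrix genes, 4 were higher in Luxi by the deposited means, 1 (COMP) by the medians of the libraries, 1 to 4 when each library was left out in turn, and 1 without the deepest library of both breeds. With medians in place of means, the log2 ratio of Angus over Luxi was 0.056 for PRG4, 0.19 for PTX3, 0.53 for HABP2 and 0.70 to 1.12 for LOC785805. With a pseudocount of 1 RPKM it was -1.29 for COMP and 1.20 for LOC785805. Leaving out each library in turn gave -4.85 to -2.64 for COMP, -2.96 to 0.30 for PRG4, -2.65 to 1.20 for PTX3, -2.13 to 0.87 for HABP2, 1.07 to 4.12 for WISP2 and 0.43 to 4.77 (up to 4.79 over the read solutions) for LOC785805. Without the deepest library of both breeds, chosen as an alternative for single genes after seeing the data, it was -2.04 for COMP, 0.55 for PRG4, 1.48 for PTX3, 1.26 for HABP2, 0.93 for WISP2 and 0.42 to 0.67 for LOC785805. The number of listed genes with a dominant library was 34 at a share above 2/3 and 65 at a share above 1/2. Mean counts over summed depth kept every direction of the 6 genes. With a median of 3 libraries or 1 library left out, the values rest on fewer reads, and the cause of the changes was not tested. The few reads per library outside the top one, and means in place of animals, limit the precision of all ratios. No paired analysis was possible because the replicate numbers only follow accession order, and the recovered libraries cannot be tied to animals.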
